A study of Mus musculus with 2 samples.

Results

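The regions described here are STAT5 peaks that lay outside every gene of the authors' annotation, but within 50 kb of the nearer gene, where that gene carries a proper name. They were picked by position alone, from the deposited distances: mitochondrial peaks were set aside, neither neighbouring gene could overlap the peak, the smaller distance had to be 1 to 50000 bp, and the gene on that side could not be an unnamed model (a symbol of Gm plus digits, or one ending in Rik). This left 469 of the 2054 deposited peaks, of which 288 came from the 1217 wild-type peaks and 181 from the 837 knockout peaks. STAT5 was mapped by CUT&Tag, which cuts and tags DNA beside an antibody-bound protein, in primary interstitial cells of the mouse aortic valve. The wild-type library came from Tert+/+ cells and the knockout library from Tert-/- cells, Tert being the gene of the catalytic part of telomerase. Both cultures were kept for 7 days in the same osteogenic medium (MEM alpha with serum, 50 µM ascorbic acid 2-phosphate, 10 mM glycerol phosphate and 100 nM dexamethasone), so no untreated cells enter. With 1 library per genotype, the values below describe 2 lists, and no difference between the genotypes has a replicate check. The labels call the cells a primary line and do not say how many animals gave them. A peak list does not measure expression, so the cell type could not be checked against its markers.

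STAT5 is a transcription factor that is phosphorylated by Janus kinases after cytokine or growth factor signals, pairs up and enters the nucleus. A pair binds DNA at a short palindrome, written TTCNNNGAA with N for any base. Such sites lie in promoters, inside genes and in enhancers at a distance, so a peak between genes may belong to a gene other than the nearer one. The nearer gene is used here as an address, not as a target.

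A sequence could be read for 1 of the 469 peaks, because it lay wholly inside a promoter window of the RefSeq table (GRCm38.p6, the assembly that mm10 stands for). This wild-type peak lay 543 bp from Bbs2, a gene of the complex that carries proteins into cilia, at chr8:94099472-94099553, (score 1.03, p-value 0.151). It spans the start of the non-coding gene model Gm39226, and capitals mark the 12 bases from that start on.
Bbs2 peak, plus strand: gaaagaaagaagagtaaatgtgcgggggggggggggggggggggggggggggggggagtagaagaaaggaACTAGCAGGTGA
Of its 82 bases, 33 form a single run of G, and TTCNNNGAA does not occur in it.

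For other peaks close to a gene start, the 250 bases before that start are shown, with TTCNNNGAA in capitals. Among genes in that table, they belong to the peak nearest to its own gene's start in each library. The others belong to genes whose stretch holds the palindrome, with a peak within 5000 bp of their start and no other listed start nearer.
Plekhg2, wild type, chr7:28372663-28372912, minus strand: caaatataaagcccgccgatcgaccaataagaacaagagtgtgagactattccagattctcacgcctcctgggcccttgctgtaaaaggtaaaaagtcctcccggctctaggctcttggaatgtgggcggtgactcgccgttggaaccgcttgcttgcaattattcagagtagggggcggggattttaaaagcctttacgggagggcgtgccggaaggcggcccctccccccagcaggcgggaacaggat
Klf9, wild type, chr19:23140976-23141225, plus strand: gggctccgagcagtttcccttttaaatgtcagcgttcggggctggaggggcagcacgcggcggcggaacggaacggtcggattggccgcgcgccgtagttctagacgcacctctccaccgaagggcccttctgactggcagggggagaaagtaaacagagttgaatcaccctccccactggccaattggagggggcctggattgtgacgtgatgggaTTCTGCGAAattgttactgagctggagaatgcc
Nemf, wild type, chr12:69357177-69357426, minus strand: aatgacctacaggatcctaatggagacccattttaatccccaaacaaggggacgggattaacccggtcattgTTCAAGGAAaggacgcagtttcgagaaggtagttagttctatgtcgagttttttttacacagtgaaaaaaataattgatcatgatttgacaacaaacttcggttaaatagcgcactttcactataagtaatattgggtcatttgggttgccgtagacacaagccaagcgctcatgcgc
Upf1, knockout, chr8:70353280-70353529, minus strand: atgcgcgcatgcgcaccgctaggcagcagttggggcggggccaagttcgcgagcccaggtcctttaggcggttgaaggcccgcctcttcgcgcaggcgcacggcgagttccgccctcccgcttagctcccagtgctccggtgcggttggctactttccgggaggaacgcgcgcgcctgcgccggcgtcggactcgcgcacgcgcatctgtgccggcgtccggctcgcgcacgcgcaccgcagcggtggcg
Counted from the start, the palindrome begins at position -33 of Klf9, a glucocorticoid-induced transcription factor, and at -178 of Nemf, which helps clear stalled ribosomes. Neither was inside a peak: the peak beside Klf9 lay 2469 bp before the start and the nearest peak beside Nemf 3993 bp before it. The stretches of Plekhg2 and of Upf1, the helicase of nonsense-mediated decay, hold none, with the peak 309 and 293 bp from the start. Members were counted here if their nearest listed start was that of their own gene and lay within 5000 bp. Those with the start of another gene nearer were left out. In the wild type 3 of 30 had the palindrome in the stretch before that start (10%, 2.11 to 26.5). The 3 belong to Klf9 and Nemf. Of the knockout members 0 of 21 had it (up to 16.1%). The 2 members beside Nemf share 1 stretch, which the wild-type interval counts as 2 separate cases. TTCNNNGAA reads the same on both strands, so 1 search covers both.

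Among all nearer genes, at any distance up to 50 kb, the intervals of the share of promoters with the palindrome took in the share among genes at large. It was found in 7.02% of all 32851 RefSeq promoter stretches. Among the nearer genes it was found in 5.43% of 258 stretches in the wild type (14, exact 95% interval 2.998 to 8.94) and in 3.57% of 168 in the knockout (6, 1.32 to 7.61). The table held 204 of 269 wild-type genes and 136 of 180 knockout genes, and none on chromosome 18. These counts are on promoters and not on the peaks, whose own sequence was not analysed here apart from the Bbs2 peak.

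Wild-type and knockout peaks of this class made up similar shares of their lists and stood apart in score and width. They were 24.4% of the 1181 nuclear peaks in the wild type (exact 95% interval 22.0 to 26.9) and 22.2% of the 817 in the knockout (19.4 to 25.2). Of the wild-type members 95 had a deposited p-value under 0.05, or 33.0% (27.6 to 38.7), where 31.2% of all nuclear wild-type peaks did. In the knockout 5 members did, or 2.76% (0.903 to 6.33), beside 3.18% of all nuclear knockout peaks. Both shares lay close to those of the whole lists. The same held under 0.01, with 18.8% of wild-type members beside 17.3% of the list and 0.552% of knockout members beside 0.612%. Under 0.1 the members' shares were 51.04% beside 47.4% and 14.4% beside 16.3%. The deposited peak shape score and its p-value are the authors' own and rank peaks within a list. Whether scores of the separate lists share a scale is unknown. Wild-type members had a median score of 1.36 and a maximum of 17.5, and knockout members had 0.976 and 2.58. Wild-type members were 51 to 120 bp wide (median 83) and knockout members 138 to 381 bp (median 241), so the ranges did not overlap. The whole lists stood apart in much the same way. Over all nuclear peaks the median scores were 1.18 and 0.977 and the median widths 84 and 239 bp. There the widths ran from 51 to 120 bp and from 78 to 386 bp, so those ranges did overlap. The read depth is not given in the sources used here, and its part in these gaps was not tested.

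**Figure D1:**
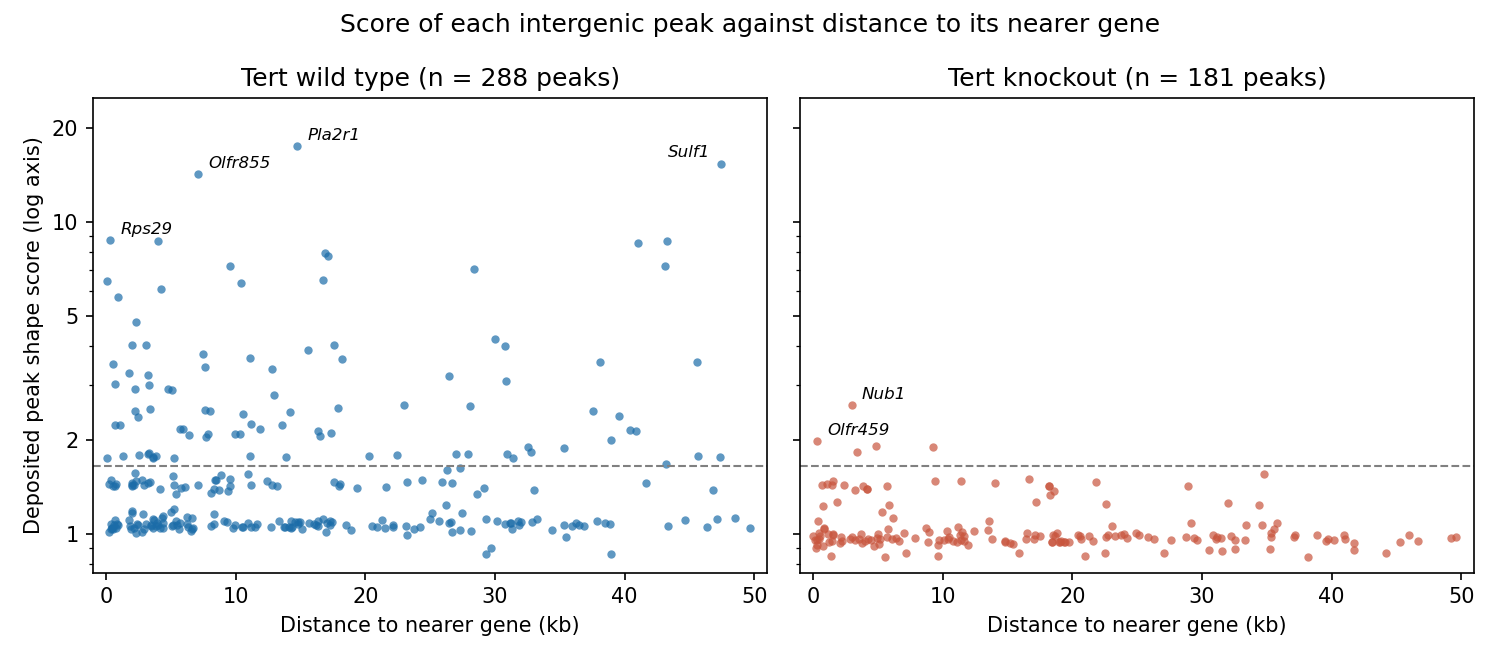
Deposited peak shape score (log axis) of each intergenic peak against its distance in kb to the nearer gene, with 1 point per peak and 1 panel per library; the dashed line is the score whose p-value is 0.05. In the wild type 95 of 288 points lie above the line and spread over all distances, and in the knockout 5 of 181 do, all within 10 kb.

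By distance, members thinned out away from genes in both libraries. The wild type held 23 peaks up to 1 kb from the gene, 59 from there to 5 kb, 50 to 10 kb, 64 to 20 kb, 40 to 30 kb, 34 to 40 kb and 18 to 50 kb. The knockout held 15, 33, 23, 46, 27, 26 and 11 in the same bins. Per kb of distance, wild-type peaks fell from 23 in the first bin to 1.8 in the last, and knockout peaks from 15 to 1.1. Wild-type members lay at a median of 11358.5 bp (exact 95% interval of the median 9526 to 14278) and knockout members at 14781 bp (11064 to 18257), and these intervals overlapped. Beside the 50 kb limit, the outermost wild-type members lay 48513 bp from Tmem200a and 49664 bp from Septin5, and the next named neighbours outside it were Adcyap1r1 at 50498 bp and Azin1 at 50952 bp. In the knockout Uqcrfs1 at 49191 bp and Shb at 49583 bp were inside, and Pou4f3 at 52174 bp and Tfap2d at 52383 bp outside.

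Much of the fall with distance was also seen in the amount of intergenic sequence at each distance. When peaks and sequence were both measured from RefSeq genes of every kind, 173 wild-type and 127 knockout peaks were intergenic within 50 kb of a named gene. The first 5000 bp beside named genes made up 34.4% of that intergenic sequence and held 39.3% of the wild-type peaks (32.0 to 47.0) and 35.4% of the knockout peaks (27.2 to 44.4). Between 40 and 50 kb the sequence share was 5.29%, and 1.73% of wild-type peaks (3 peaks, 0.359 to 4.98) and 1.57% of knockout peaks (2 peaks, 0.191 to 5.57) lay there. In peaks per 100 Mb of sequence, the bins up to 20 kb ran from 44.2 to 51.4 for wild-type peaks and from 31.2 to 37.8 for knockout peaks. Beyond that the density was 29.0 in both libraries between 20 and 30 kb, 52.4 and 45.4 between 30 and 40 kb, and 14.6 and 9.73 between 40 and 50 kb.

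**Figure D2:**
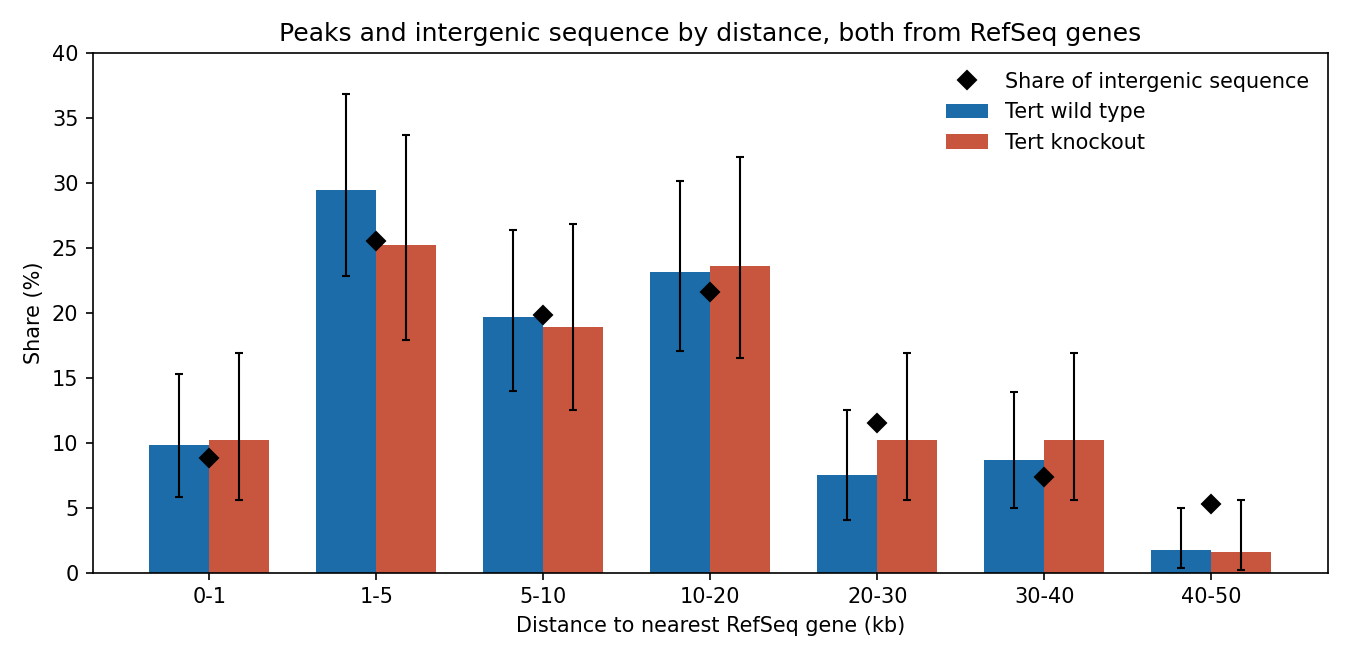
Share in % of intergenic peaks (bars, with exact 95% intervals for counting error) and of intergenic sequence (diamonds) in each bin of distance in kb, both measured from RefSeq genes with a named nearest gene. The diamond lies inside the interval of both libraries in every bin except 40 to 50 kb, where the wild-type interval ends at 4.98% and the sequence share is 5.29%.

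High scores were not tied to short distance in the wild type. The share of members with a p-value under 0.05 was 30.4% in the first 1000 bp (7 of 23, 13.2 to 52.9), 20% between 20 and 30 kb (8 of 40, 9.05 to 35.6) and 55.6% between 40 and 50 kb (10 of 18, 30.8 to 78.5). The intervals of these bins overlapped. They count peaks of the close groups described below as separate peaks. The 10 peaks beside Col19a1, of which 3 had a p-value under 0.05, lay between 20 and 30 kb. The 2 peaks beside Fbxo33, with p-values under 0.05, lay between 40 and 50 kb. In the knockout all 5 such members lay within 10 kb of a gene, in a library where 71 of 181 members did.

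The side of the gene could be told for 220 wild-type and 136 knockout members, whose nearer gene had a strand in the promoter table. In the wild type 137 lay before the gene's start and 83 past its end, or 62.3% before the start (55.5 to 68.7). The knockout had 78 and 58, or 57.4% (48.6 to 65.8). Of intergenic sequence within 50 kb of named RefSeq genes 50.5% lay on the start side, below the wild-type interval and inside the knockout interval. Without the wild-type peaks that stand in close groups, described next, 60.9% lay before the start (123 of 202, 53.8 to 67.7). For wild-type members with a p-value under 0.05 the share was 58.0% (40 of 69, 45.5 to 69.8), an interval that took in the share of sequence. Within 5 kb of the gene it was 54.8% (34 of 62, 41.7 to 67.5) beside 49.6% of the sequence there, which that interval also took in. Peaks and sequence were measured here from separate annotations, and the part of that in the difference was not tested.

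**Figure D3:**
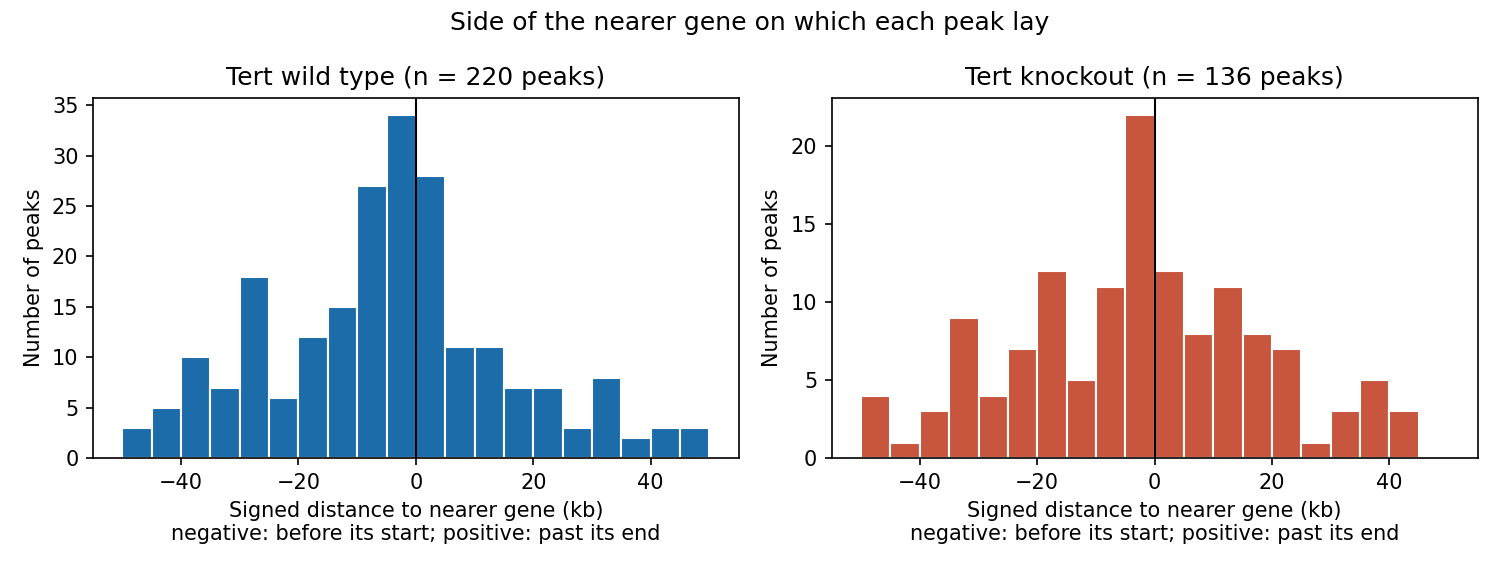
Number of peaks by signed distance in kb to the nearer gene, in bins of 5 kb, for members whose gene had a known strand; negative values lie before the gene's start and positive values past its end. In the wild type 137 of 220 peaks lie left of zero and in the knockout 78 of 136.

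Several of the strongest wild-type members came in close groups. With gaps of at most 1000 bp, 24 of the 288 wild-type members fell into 7 pairs and 1 group of 10, beside 0 of 181 in the knockout. Over all nuclear peaks, such a neighbour was found for 6.35% in the wild-type list and for 1.22% in the knockout list. Of the 20 highest-scoring wild-type members 11 belonged to these groups. The pairs spanned 208 to 356 bp from the first base to the last, and every peak in them had a p-value under 0.05.

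The pairs beside Rps29 and Nemf sat on the genes of 7SL RNA, the RNA of the signal recognition particle, which RNA polymerase III transcribes. The authors' columns place them beside Rps29, a ribosomal protein gene, and Nemf, but RefSeq has Rn7s1 and Rn7s2 at these places, each 299 bp long. Beside Rps29 the peaks at chr12:69159293-69159372 (score 6.45, p-value 5.64e-11) and chr12:69159528-69159607 (score 8.77, p-value 8.81e-19) covered the lower and the higher end of Rn7s1 (69159295 to 69159593). Beside Nemf the peaks at chr12:69361169-69361251 (score 8.70, p-value 1.60e-18) and chr12:69361401-69361483 (score 6.08, p-value 5.91e-10) covered both ends of Rn7s2 (69361183 to 69361481) in the same way. A further wild-type member with a low score, 371 bp from Plekhg2 (1.07, p-value 0.142), shared 52 bp with n-TIaat16, an isoleucine tRNA gene. Of 408 tRNA and 3 scRNA genes in the RefSeq table, 1 and 2 overlapped a wild-type nuclear peak, and 0 and 0 a knockout nuclear peak. Such RNA genes have near-identical copies elsewhere in the genome, and how the authors placed reads with several matches is not given in the sources used here.

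The remaining pairs had no small RNA gene of RefSeq under them. They lay 43119 and 43247 bp from Fbxo33, a ubiquitin ligase subunit (scores 7.20 and 8.69), 16880 and 17091 bp from Mrgprd, a sensory neuron receptor (7.94 and 7.79), and 16529 and 16749 bp from Alox5ap, which hands arachidonic acid to leukotriene synthesis (2.06 and 6.51). Pairs of lower score lay beside Malt1, a paracaspase of NF-kappaB signalling (2.503 and 4.04), and Tmem196 (3.77 and 3.44). The Alox5ap pair spanned 300 bp at the end of the non-coding gene model Gm24105. No gene was listed on the far side of the Mrgprd pair or of the Tmem196 pair in the authors' columns.

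The group of 10 lay within 4354 bp at chr1:24611816-24616169, 24343 to 28616 bp before the start of Col19a1, a collagen gene. This stretch is known as a nuclear copy of mitochondrial DNA, and RefSeq lists the pseudogenes Gm10222 and Gm10925 inside it. Scores ran from 1.01 to 7.07 with a median of 1.42, and 3 of the 10 had a p-value under 0.05. The highest was at chr1:24615866-24615950 (p-value 7.48e-13). The wild-type list also held 36 mitochondrial peaks. The knockout list held mitochondrial peaks as well (817 of its 837 peaks were nuclear), but no member beside Col19a1. The part of mitochondrial reads in this group was not tested.

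**Figure D4:**
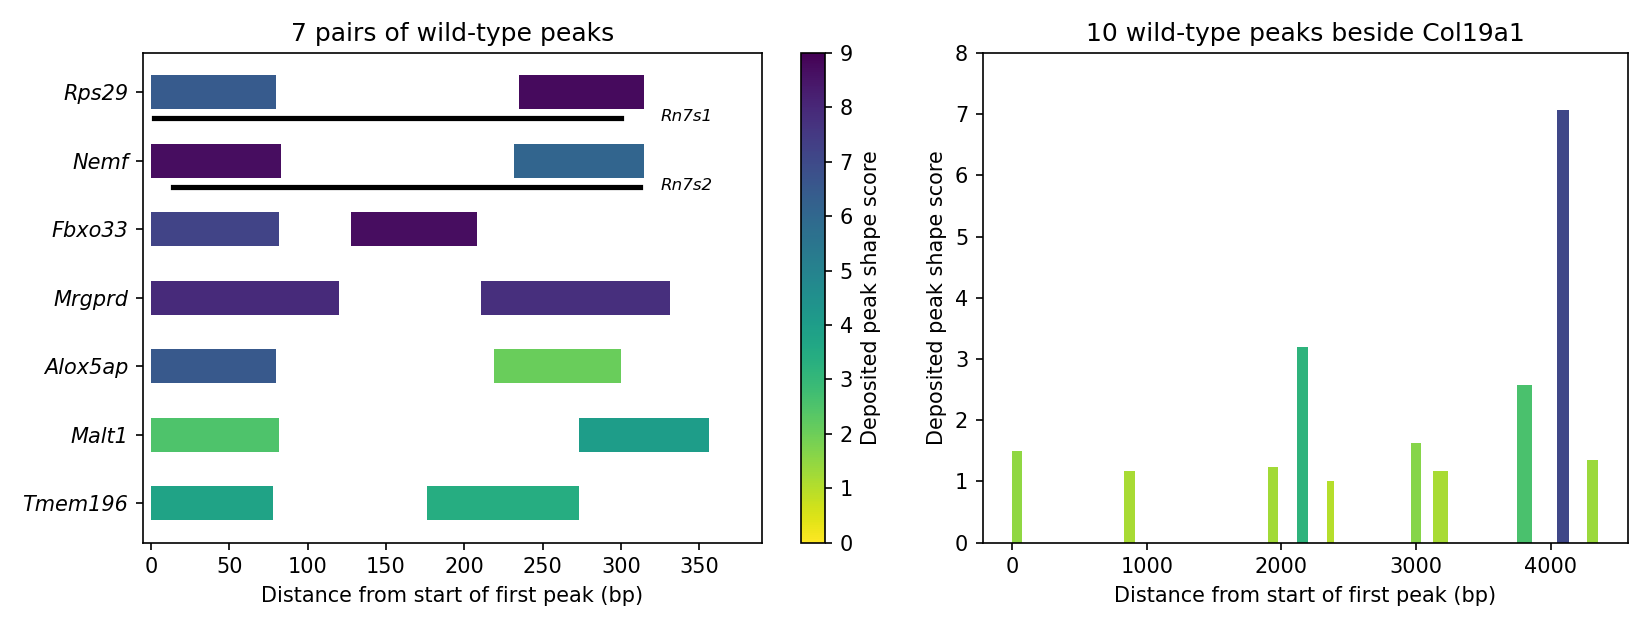
Left, the 7 wild-type pairs by distance in bp from the start of the first peak, each bar a peak coloured by its deposited score, with black lines for the 7SL RNA genes Rn7s1 and Rn7s2. Right, the 10 wild-type peaks beside Col19a1, bar height giving the deposited score. The peaks of the Rps29 and Nemf pairs cover the ends of the RNA genes, and in the right panel 1 peak reaches 7.07 while the other 9 stay at 3.20 or below.

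Outside these groups the strongest wild-type members stood alone. The top member lay 14704 bp past the end of Pla2r1, a receptor for secreted phospholipases (chr2:60402759-60402838, score 17.5, rank 5 of the whole list). Sulf1, which trims sulfate from heparan chains outside the cell and so tunes growth factor signals, had its peak at 47423 bp (chr1:12644772-12644853, score 15.4, rank 6). The odorant receptor gene Olfr855 followed at 7098 bp (score 14.3). Ccn1, a secreted matrix protein induced by serum and stretch, had a peak 41029 bp before its start (chr3:145691011-145691095, score 8.56, p-value 5.78e-18). Prxl2b, a prostaglandin F synthase, at 9526 bp (7.22), and Tbc1d23, a trafficking protein, at 10420 bp (6.35) came next. None of these 6 overlapped a knockout peak, in a list where 0.931% of nuclear peaks overlapped one.

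The knockout members had a flatter order of scores. Nub1, which targets NEDD8 for breakdown, led with a score of 2.58 at 2968 bp (chr5:24682227-24682563, p-value 0.00488). Olfr459, an odorant receptor gene, had a score of 1.99 at 295 bp. H2-Ab1, an MHC class II chain of antigen-presenting cells, had a score of 1.92 at 4831 bp (chr17:34274251-34274495, p-value 0.0276). Smtnl2, a smoothelin-like gene, at 9251 bp (1.89) and Rps10, a ribosomal protein gene, at 3405 bp (1.83) completed those with a p-value under 0.05. Ranks 6 to 10 among the members were Tox, Gtf3a, Vmn2r98, Thap1 and Cmklr1, with scores from 1.553 to 1.47. Thap1, a zinc finger factor, was the 1 gene with a pair of knockout members, at 9399 and 16446 bp (scores 1.47 and 0.963).

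Members closest to genes scored much like the rest. Within 1 kb the median score was 1.42 for wild-type members, of which 30.4% had a p-value under 0.05, and 0.985 for knockout members, of which 6.67% did (1 of 15). The 8 closest wild-type members lay 97 bp from Smyd3, a methyltransferase (score 1.75), 106 and 341 bp from Rps29 (6.45 and 8.77), 254 bp from Troap, a spindle protein (1.45), 262 bp from Fosl2 (1.01), 362 bp from Ldhb, lactate dehydrogenase B (1.49), 371 bp from Plekhg2 and 402 bp from Ptprj, a receptor phosphatase (1.04). Ptprj had a further peak 45686 bp away on the other side (1.77). The authors' annotation put the Fosl2 peak at 262 bp, whereas its RefSeq start lay 934 bp away. In the knockout the closest were 2 bp past the end of Zfp617, a zinc finger gene (0.983), 160 bp from Gfod2 (0.953), 235 bp from Rgmb, a BMP co-receptor (0.898), 293 bp from Upf1 (0.920), 295 bp from Olfr459, 317 bp from Olfr1465 (0.952), 370 bp from Krt17, a keratin (1.10), and 430 bp from Clec11a, a bone growth factor (0.964). Within 1000 bp of a transcription start listed in the promoter table lay 8 of 279 wild-type and 4 of 176 knockout members. Both counts are minimum values, because that table lacks the starts of some nearer genes. For the Smyd3 peak the nearest listed start was that of Tfb2m, at 28055 bp. For the Rps29 peaks it was that of Lrr1, at 9442 and 9207 bp.

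The nearer genes were almost all different in the 2 libraries. The 288 wild-type members pointed to 269 genes and the 181 knockout members to 180, and 7 genes were common, 2.60% of those in the first set and 3.89% of those in the second. Over all named protein-coding RefSeq genes 0.868% were the nearer gene of a knockout member and 1.31% that of a wild-type member, and no test was made of the difference. By position 1 wild-type and 1 knockout member overlapped a peak of the other list, where 0.931% and 1.1% of all nuclear peaks did, and they overlapped each other. This was the place before Pak3, a kinase gene on chromosome X, where the wild-type peak of 80 bp (score 0.975, p-value 0.165) lay wholly inside the knockout peak at chrX:143482971-143483238 (score 1.00, p-value 0.158). At the other 6 genes the peaks of the genotypes lay apart. The gap was 8478 bp beside Zfp825 (wild-type score 2.16, knockout score 0.988), 10576 bp at its shortest beside Alox5ap (2.06 and 1.42) and 27744 bp beside Dock4, a Rac activator (1.38 and 1.01). It was 62308 bp at Trim67, 92947 bp at its shortest at Malt1 and 790623 bp at Grid1, a glutamate receptor gene. At Trim67, Malt1 and Grid1 alike, the peaks of the genotypes lay on opposite sides of the gene. Pdia6 and Ropn1 each had a pair of wild-type members over 1000 bp apart, with scores of 1.04 and 1.79 and of 1.05 and 1.07.

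Of 20 gene lists, 9 had no gene with a wild-type member and 17 none with a knockout member. Of 35 JAK and STAT pathway genes and of 25 STAT5 target genes 0 were the nearer gene of a member in either library. Of all 486 listed genes 17 were nearer genes of wild-type members (3.50%) and 3 of knockout members (0.617%). Over 20152 named protein-coding RefSeq genes these shares were 1.31% and 0.868%. The lists were drawn up with earlier results of these data known, so these shares are a description. A list does not hold every gene of its theme, so a count of 0 covers the listed genes only. With peaks of p-value under 0.05 alone 4 and 0 remained.

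Wnt genes had 3 of 58 with a wild-type member and 0 with a knockout member. Sfrp1, a secreted Wnt antagonist, had a peak at 47372 bp (chr8:23364045-23364129, score 1.76, p-value 0.0392), and the ligand Wnt2, at 31777 bp past its end (1.10), and the co-receptor Lrp5, at 1859 bp (1.06), had p-values of 0.135 and 0.145. BMP and TGF-beta genes had 3 of 35 and 0: the signal transducer Smad4 at 14978 bp (score 1.09), the BMP antagonist Chrd at 14079 bp past its end (1.05) and the receptor Tgfbr1 at 21541 bp past its end (1.04). Their p-values ran from 0.138 to 0.149, so none was under 0.05. The list lacks Rgmb, the BMP co-receptor named above, which had a knockout member at 235 bp (0.898). Notch and Hedgehog genes had 1 of 29 and 0, the Notch ligand Jag1 with a peak 27898 bp before its start (chr2:137144543-137144629, score 1.80, p-value 0.0360).

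Of 30 osteogenic genes 1 had a wild-type member and 0 a knockout member: Fosl2, an AP-1 factor active in bone cells (chr5:32135445-32135538, score 1.01, p-value 0.156). Chondrogenic genes had 1 of 16 and 0, Col9a2, a cartilage collagen chain, 4338 bp before its start (1.12). Mineral metabolism genes had 1 of 20 in each library. In the wild type this was Ank, a transporter that exports pyrophosphate, at 17052 bp before its start (1.08). In the knockout it was Nt5e, which makes adenosine from AMP and is linked to arterial calcification, at 21825 bp before its start (chr9:88304991-88305371, score 1.47, p-value 0.0711).

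Valve matrix genes had 2 of 36 with a wild-type member and 0 with a knockout member, Sulf1 (above) and Fbn2, a fibrillin of elastic fibres, at 14579 bp (1.09). Dexamethasone in the medium is a glucocorticoid, and genes of the glucocorticoid response had 2 of 20 and 0: Klf9 at 2468 bp before its start (chr19:23138673-23138757, score 1.07, p-value 0.142) and Nr3c2, the mineralocorticoid receptor, at 12740 bp before its start (1.05). Chromatin genes had 1 of 39 and 0, the deacetylase gene Hdac8 at 14232 bp (1.09). Of the 20 listed telomere and telomerase genes, 0 had a wild-type member and 1 a knockout member. This was Stn1, a telomere capping subunit, at 17055 bp (0.958, p-value 0.169). The listed genes of smooth muscle and myofibroblasts (15) and of senescence and secretion (21) had 0 in both libraries. So did the 28 listed genes of insulin-like and fibroblast growth factors, a list without other growth factors such as Clec11a.

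Marker genes of other cell types were the nearer gene of 2 wild-type members and 1 knockout member. Endothelial (14), cardiomyocyte (10) and neuron and photoreceptor (20) genes had 0 in both libraries. Of 14 leukocyte markers C1qa, a complement gene of macrophages, had a wild-type peak at 5751 bp (1.40, p-value 0.0807). Of 7 melanocyte markers Tyrp1, a pigment enzyme, had a wild-type peak 1994 bp before its start (chr4:80832047-80832128, score 4.03, p-value 2.77e-05), and Mitf, the pigment cell regulator, a knockout peak at 22486 bp (0.867, p-value 0.193).

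Olfactory and vomeronasal receptor genes, which lie in dense arrays, were the nearer gene of 6 wild-type members and 15 knockout members. That is 2.08% of the wild-type members (exact 95% interval 0.768 to 4.48) and 8.29% of the knockout members (4.71 to 13.3). These genes flanked 10.0% of the intergenic sequence within 50 kb of named RefSeq genes, so the wild-type share was below the share of sequence and the knockout interval took it in. In the wild type Olfr855 (14.3) and Olfr606 at 730 bp (3.02) had a p-value under 0.05, and in the knockout Olfr459 did. Zinc finger genes named Zfp were the nearer gene of 5 wild-type members (1.74%, 0.566 to 4.005) and 9 knockout members (4.97%, 2.30 to 9.23), beside 1.46% of the sequence. The 9 knockout scores ran from 0.848 to 0.998. For both gene families the peaks were placed by the authors' annotation and the sequence by RefSeq. The part of that in the gaps between peak and sequence shares was not tested.

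Part of the members overlapped, wholly or by some bases, a RefSeq gene that the authors' annotation lacked or drew differently. This held for 60 of 288 wild-type members (20.8%, 16.3 to 26.0) and 31 of 181 knockout members (17.1%, 11.9 to 23.4). Long non-coding RNA genes accounted for 35 and 15 of them and protein-coding genes for 14 and 12. By the authors' columns a wild-type peak lay 566 bp past Efcc1 (score 3.51), yet it lay within the RefSeq extent of that gene.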

How the data were processed

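STAT5 CUT&Tag libraries, amplified with 14 PCR cycles per the labels' protocols, gave 1 deposited peak list each, with coordinates on mm10 per the submitters' processing notes. Per the file headers, the authors deposited for each peak a position, a width, a peak shape score, a p-value and the distance to the neighbouring gene on either side. The deposited p-value is the upper normal tail of the score and is not adjusted. For aligner, caller, annotation, depth and control: not given in the sources used here. Members follow from the authors' distance columns. Peaks were called overlapping from 1 bp. Shares carry exact (Clopper-Pearson) 95% intervals, for counting error only. RefSeq (GRCm38.p6) gave gene extents, strands and promoter sequences; it named 268 and 179 of the 269 and 180 nearer genes by current symbol. Python 3.11.15 with pandas 2.3.3 and scipy 1.17.1 was used. The member rule, the overlap step and the merging of peaks were tested on simulated peaks, and the other steps were not.

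Genes named are those of the 10 highest-scoring and 8 closest members per library, genes with several members or members in both libraries, and up to 6 per list with a member. Genes beside the 50 kb limit, and RefSeq genes that overlap a member or hold its nearest start, were named outside these rules. Bbs2, Tbc1d23, Olfr606, Efcc1, the small RNA genes and the limit of 1000 bp for close groups were chosen after values were seen. Alternatives changed the distance limit, the p-value limit, the gene models, the overlap required and the merging of peaks. The members and lists were chosen with earlier results of these data known. No test between libraries was possible.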

Additional observations from a re-analysis of the deposited data

How the results depend on the processing

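Of 68 alternative values, 46 stayed within 1.5 times (counts) or within the exact interval (shares and medians) and 22 did not. With peaks of p-value under 0.05 alone, members numbered 95 and 5 (wild type, then knockout), the knockout share of nuclear peaks was 19.2%, 100% of knockout members lay within 10000 bp with a median distance of 3405 bp, overlapping members numbered 0 and 0, genes common to both 0, and listed genes with a member 4 and 0. A distance limit of 25000 bp gave shares of nuclear peaks of 18.04% and 16.4% and 4 common genes. A limit of 100000 bp gave shares of 28.9% and 27.7%, and admitting unnamed gene models 30.1% and 28.9%. At p-value limits of 0.01 and 0.1 the share of members passing was 18.8% and 51.04% in the wild type and 0.552% and 14.4% in the knockout. Counting both neighbours raised the listed knockout genes from 3 to 5. These moves follow from what each setting keeps. Leaving out the wild-type close groups, an alternative added after seeing the data, left 29.5% of wild-type members with a p-value under 0.05. No paired analysis was possible because each genotype has 1 library. With 1 library per genotype and no read counts, precision is limited to counting error within each list.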

Other observations

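Scores of the wild-type members were bunched. Between 1 and 1.1 lay 109 of the 288 members, between 1.1 and 1.2 a further 26, and between 1.2 and 1.3 only 1. A second bunch had 35 members between 1.4 and 1.5, with 3 between 1.6 and 1.7, and 16 followed between 1.7 and 1.8. In the knockout 106 of 181 members scored between 0.9 and 1, and 15 between 1.4 and 1.5. These bands were drawn after the scores were seen.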
